A study of Mus musculus with 23 samples.

Results

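Retinal organoids supplied with docosahexaenoic acid (DHA) were compared with organoids supplied with linoleic acid (LA) at day 32 of differentiation, without fibroblast growth factor 1 (FGF1). This comparison holds 6 of the 23 RNA-seq libraries of the study, chosen by their labels: 3 of DHA and 3 of LA, numbered 1 to 3 in each medium. By the labels, all organoids came from 1 mouse induced pluripotent stem cell clone of the wild-type Nrl-GFP line. In that line GFP marks cells of the rod lineage. The clone was reprogrammed from embryonic fibroblasts with doxycycline-inducible lentiviral vectors for Oct3/4, Sox2, Klf4 and c-Myc. DHA or LA, each conjugated with bovine serum albumin (BSA), was given at 26 µM from day 10. The control medium with BSA in place of a fatty acid gave 3 more libraries at day 32, used here as the reference level. All 9 libraries shared the base medium, which held taurine, 9-cis retinal and insulin-like growth factor 1 from day 10, and non-essential amino acids, B27 supplement without vitamin A and fetal bovine serum from day 26. Neural retina was dissected from 12 intact organoids, so a library is a pool, and directional poly(A) libraries were made. The labels speak of biological replicates but do not say whether these were separate differentiations, so p-values measure only the spread between these pools.

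DHA is a long, highly unsaturated omega-3 fatty acid that is concentrated in the phospholipids of photoreceptor outer segment discs. It reaches cells through carriers such as MFSD2A, is activated by acyl-CoA synthetases such as ACSL6, is built into phospholipids, and is lengthened by ELOVL4. LA is a shorter omega-6 fatty acid that desaturases and elongases can turn into arachidonic acid, and it serves here as a second polyunsaturated fatty acid at the same dose. Fatty acids can also act on transcription, since they are ligands of the PPAR receptors and DHA is a ligand of the RXR receptors, and unsaturated fatty acids restrain SREBP1, the activator of fatty acid synthesis genes.

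The 9 libraries held 10405663 to 11888224 estimated counts, fewer than the 16029580 to 20510550 of the 12 deeper libraries of the study. Replicate 1 of BSA, LA and DHA was left out of the normalized table by the authors, and these 3 libraries stood apart in imprinted and Y-linked transcripts. For example, the imprinted RNA Meg3 was at 126 CPM (counts scaled to a common library size) in LA, 404 in DHA and 282 in BSA, against 1.61 to 7.02 in the other 6 libraries, and the Y-linked gene Eif2s3y was at 46.4 to 62.9 CPM against 0.0702 to 0.588. The labels name 1 clone for all, and whether replicate 1 came from the same cells was not tested. Replicate 1 was kept in the tests because the replicate number was fitted as a pairing term, and values without it are given below. The second DHA library stood apart as well: it had the lowest share of mitochondrial transcripts (5.55%), the flattest relation of log2 CPM to GC content (slope −0.04 per 10 percentage points, against −1.27 to −0.20 in the others), and it alone of the 9 held 2 pseudogene models above 1 CPM, described at the end. Whether its reads came from a single library was not tested, and values without it are given where they move a result. The defining genes of photoreceptors were present in all 9 libraries: Crx, the transcription factor of photoreceptor precursors, was at 1161 to 1434 CPM in LA and DHA, and Nrl, which directs rod fate, at 541 to 974 CPM.

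No gene differed between DHA and LA after correction. Of 17006 genes tested in edgeR's quasi-likelihood model with the replicate number as a pairing term, 0 (0%) passed an adjusted p of 0.05, and the smallest adjusted p was 1.00. DESeq2 with the same pairing called 5 genes and limma voom 0. The call of 0 also ended when only the DHA and LA libraries were fitted (1 gene), when all 23 libraries were fitted (2) and without a filter on low counts (12). Without correction 347 genes had a p under 0.05, which were 187 genes higher in DHA (1.1% of those tested) and 160 lower (0.941%). Together these lie below the share of 0.05 that this threshold gives when no gene differs. The count of 347 moved with the fit: it was 1085 without replicate 2, 852 with only the DHA and LA libraries, 695 with a GC offset and 157 without replicate 1. The median log2 difference, DHA minus LA, was 0.02, and 53.1% of genes were above 0. The 95% interval of a gene's log2 difference reached a median of 0.81 to either side, so for the middle gene a difference smaller than that could not be told from 0 with 3 pairs. All 3 DHA libraries lay above all 3 LA libraries for 441 genes (2.59%) and below them for 357 genes (2.1%).

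The 3 pairs differed from one another more than DHA differed from LA in common. Across the 17006 genes, the DHA minus LA difference of pair 1 correlated with that of pair 2 at r = 0.071, with that of pair 3 at 0.0099, and pairs 2 and 3 at −0.0038, as a description over genes that are not independent. Among the 5827 genes with an average log2 CPM of 5 or more the values were 0.069, 0.118 and −0.046, so the pairs also differed where counts were high. Pair 2 differed from the other pairs in its relation to base composition: its log2 differences had a Spearman correlation of 0.388 with the GC content of the transcripts, against −0.093 in pair 1 and −0.096 in pair 3. A fit with a GC offset also called 0 genes, and in it 69 of the 70 genes whose differences are followed here kept their direction, the exception being Scd1, which lay near 0.

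**Figure D1:**
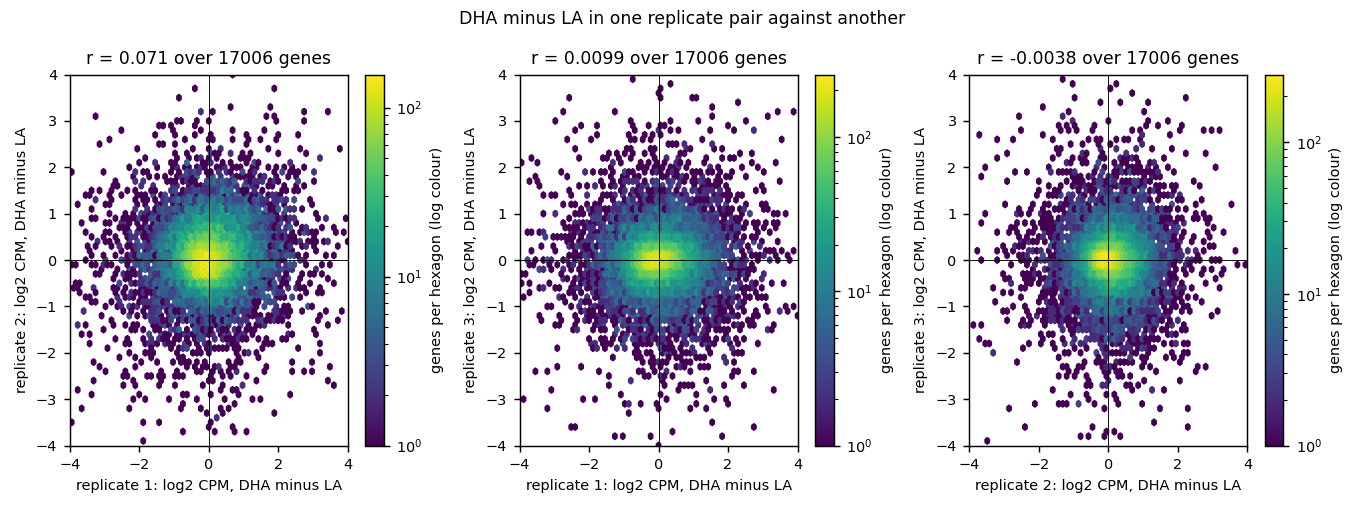
Each panel sets the log2 CPM difference, DHA minus LA, of one replicate pair (x axis) against that of another (y axis) for the 17006 genes tested, with the colour giving the number of genes per hexagon on a log scale and the axes ending at 4 in either direction. The clouds are round, with r of 0.071, 0.0099 and −0.0038, so the difference in one pair said little about that in another.

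The deposited gene values are not the sums of a gene's transcript counts, which bears on the genes below. Among genes with 50 or more counts, the gene value departed from the sum of its transcripts by a median of 0.0541 to 0.115 log2 units in the 9 libraries, and by more than 2-fold in 0.275 to 1.81% of genes. It lay closer (median 0.0165 to 0.0340) to transcript abundance per length multiplied by a mean gene length, a scale on which a gene's value moves when short transcripts take a larger share of its reads. Gene counts were therefore also taken as sums of transcript counts, an alternative chosen after seeing the data. This called 0 of 16680 genes, and 280 had an unadjusted p under 0.05, of which 203 also had one, with the same direction, in the gene table. For the 24 genes described next, 12 of 12 higher genes kept their direction in the sums and 5 kept an unadjusted p under 0.05, against 11 of 12 and 8 for the lower genes. Differences are those of the gene table unless the sum is named.

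The genes described next are the 12 with the smallest p in each direction among genes whose mean log2 CPM reached 1; their differences are single values that did not pass correction. Among the 12 higher in DHA, the smallest p belonged to Apobec3 (chromosome 15, 79891659 to 79915906, GRCm38), a cytidine deaminase that restricts retroviruses. Apobec3 was at 4.86, 1.79 and 0.474 CPM in LA replicates 1 to 3 and at 32.0, 45.7 and 3.10 CPM in DHA. Its level was higher in DHA within each pair, although the third DHA library lay below the first LA library. BSA libraries held 14.4, 11.0 and 5.41 CPM, between the means of LA and DHA. The log2 difference was 3.40 (SE 0.60, unadjusted p = 0.000327, adjusted p = 1.00), it was 3.95 without replicate 1, and in the sum of transcripts it was 3.08. Much of its count lay in Apobec3-208, a form with a retained intron, at 3.31, 1.08 and 0 CPM in LA and 26.0, 40.4 and 1.53 CPM in DHA. Over the alternatives its adjusted p ranged from 8.47e-07 to 1.00 and passed in 3 of 19: when only the DHA and LA libraries were fitted, without a filter on low counts, and in DESeq2.

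Several of the other 11 higher genes act in the nucleus or at the membrane, and they are given in that order. Chd9, a chromatin remodeller of the CHD family (chromosome 8, 90828352 to 91054516), was at 331, 241 and 332 CPM in LA and at 1296, 572 and 510 CPM in DHA, with 328, 438 and 407 CPM in BSA. The DHA libraries lay above all LA libraries, with the first DHA library far above the rest, and the log2 difference was 1.33 (SE 0.33), or 0.82 without that library. The sum of its transcripts did not show this: it was 0.27 (SE 0.21), with 334, 304 and 376 CPM in LA and 489, 315 and 422 CPM in DHA. The main coding form Chd9-202 averaged 274 CPM in LA and 275 CPM in DHA, while the short noncoding form Chd9-206 was at 25.2, 12.4 and 20.5 CPM in LA and 152, 60.2 and 44.3 CPM in DHA, a log2 difference of 2.04 (SE 0.44). Kmt2d, a histone methyltransferase of enhancers, had 57.1, 91.1 and 53.3 CPM in LA and 101, 166 and 73.8 CPM in DHA, a log2 difference of 0.73 (0.52 in the sum). Med15, a subunit of the Mediator complex, had 9.10, 14.3 and 8.02 CPM in LA and 17.8, 20.9 and 20.4 CPM in DHA, with no overlap, but its sums overlapped. Zmym3, a zinc finger protein of histone deacetylase complexes, and Top3b, a topoisomerase that acts on DNA and RNA, also did not overlap: Top3b was at 19.6, 28.1 and 21.9 CPM in LA and at 47.1, 38.9 and 37.2 CPM in DHA, a log2 difference of 0.83 (SE 0.22). In the sums both overlapped, with log2 differences of 0.50 for Top3b and 0.21 for Zmym3.

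Cacna1f encodes the pore of the calcium channel that triggers glutamate release at the photoreceptor ribbon synapse (X chromosome, 7607083 to 7635196). Cacna1f was at 33.1, 41.3 and 40.9 CPM in LA, at 50.4, 109 and 75.8 CPM in DHA, and at 35.9, 59.8 and 87.3 CPM in BSA. All DHA libraries were above all LA libraries, while BSA spanned both, and the log2 difference was 0.97 (SE 0.26). The sum of its transcripts gave 0.80 (SE 0.31), with LA and DHA overlapping. Kcnd1, a voltage-gated potassium channel subunit, was at 2.25, 7.23 and 4.31 CPM in LA and at 11.1, 12.5 and 11.4 CPM in DHA, a log2 difference of 1.46 (SE 0.38), or 0.82 (SE 0.39) with overlap in the sum. The other genes were Cpne1, a calcium-dependent lipid-binding protein, at 1.2, 4.51 and 2.70 CPM in LA and 11.1, 11.1 and 7.88 CPM in DHA (log2 difference 1.90, SE 0.46, and 3.25 in the sum), St6galnac2, a sialyltransferase (0.92), Sharpin, a part of the linear ubiquitin ligase (0.96), and Abca13. Abca13 is a large transporter of the lipid-carrying ABCA subfamily. It was at 0.533, 1.55 and 3.65 CPM in LA and at 19.0, 2.34 and 23.0 CPM in DHA, so 2 of the 3 DHA libraries were far above every LA and BSA library and the other was not. Its log2 difference was 2.82 (SE 0.80), and 1.91 without replicate 1. This was not seen in its transcripts: their sum differed by 0.25 (SE 0.56), and the coding form Abca13-201 was at 0.688, 1.99 and 4.15 CPM in LA and 1.47, 1.97 and 2.31 CPM in DHA, a log2 difference of −0.07.

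Among the 12 lower in DHA, Arap2 and Cplane1 had 2 of the 3 smallest p values in the gene table, and neither difference was seen in the transcripts. Arap2 regulates small GTPases (chromosome 5, 62602445 to 62766159). It was at 58.4, 96.6 and 50.7 CPM in LA and at 18.8, 16.7 and 29.9 CPM in DHA, with 19.8, 31.1 and 29.2 CPM in BSA. No DHA library reached an LA library, and the log2 difference was −1.64 (SE 0.32). The sum of transcripts gave −0.33 (SE 0.28): the coding form Arap2-201 was at 39.5, 28.3 and 32.2 CPM in LA and 23.1, 20.7 and 40.4 CPM in DHA, so the groups overlapped and the third pair ran the other way. Cplane1, a protein of primary cilium assembly, was at 268, 219 and 106 CPM in LA, at 107, 41.7 and 69.1 CPM in DHA and at 105, 59.6 and 50.8 CPM in BSA, a log2 difference of −1.44 (SE 0.30). Its sum of transcripts had the opposite sign, at 0.23 (SE 0.17), and the coding form Cplane1-201 was at 57.7, 68.3 and 80.5 CPM in LA and 74.2, 71.9 and 82.9 CPM in DHA. Gclm, the regulatory subunit of glutamate cysteine ligase, which makes glutathione, was at 90.8, 60.9 and 76.1 CPM in LA and at 27.6, 44.1 and 51.9 CPM in DHA, with 62.4 to 68.5 CPM in BSA. Its groups did not overlap, and the log2 difference was −0.90 (SE 0.26), or −0.51 without replicate 1. The sum gave −0.31 (SE 0.27) with overlap, and a form with a retained intron, Gclm-205, had −2.06 (SE 0.42) while the coding form Gclm-201 had −0.31 (SE 0.36).

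In Crhbp, Optc, Prrx1 and Fam129a the BSA libraries overlapped those of LA and not those of DHA. Among the 357 genes with all DHA libraries below all LA libraries, this held for 104. BSA overlapped DHA and not LA in 72 of the 357, and both in 167. Optc is not one of the 357, because its LA and DHA libraries overlapped. Crhbp, which binds corticotropin-releasing hormone, was at 8.43, 17.7 and 8.74 CPM in LA, 2.36, 5.72 and 4.14 CPM in DHA and 7.75, 20.5 and 9.60 CPM in BSA. Its groups did not overlap, and the log2 difference was −1.50 (SE 0.32), or −1.34 without replicate 1. Optc encodes opticin, a proteoglycan of the vitreous made by the ciliary epithelium, and was at 9.12, 15.7 and 7.15 CPM in LA and 2.30, 7.37 and 3.13 CPM in DHA. Prrx1, a transcription factor of mesenchyme, was at 4.69, 2.80 and 3.45 CPM in LA, 1.04, 0.954 and 1.25 CPM in DHA and 2.59 to 3.67 CPM in BSA. Nid2, a basement membrane protein, was at 10.3, 12.6 and 3.24 CPM in LA and 0.936, 6.73 and 0.452 CPM in DHA, a log2 difference of −2.10 (SE 0.57), or −3.17 without the second DHA library. Fam129a, a regulator of translation under stress, was at 25.9, 16.1 and 8.75 CPM in LA and 3.67, 5.82 and 6.38 CPM in DHA, a log2 difference of −1.64, or −0.99 without replicate 1. Slc26a7, an anion exchanger, and Sp8, a transcription factor of the early optic and telencephalic fields, had log2 differences of −1.73 and −1.78, and in the sums −0.69 and −1.63. Pcdha11 had a log2 difference of −1.54 (−0.95 without replicate 1) and is uncertain, because the protocadherin alpha genes share their last exons. In the sums Crhbp had −1.48, Optc −1.23, Prrx1 −1.76, Nid2 −1.82 and Fam129a −1.60, near their values in the gene table.

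**Figure D2:**
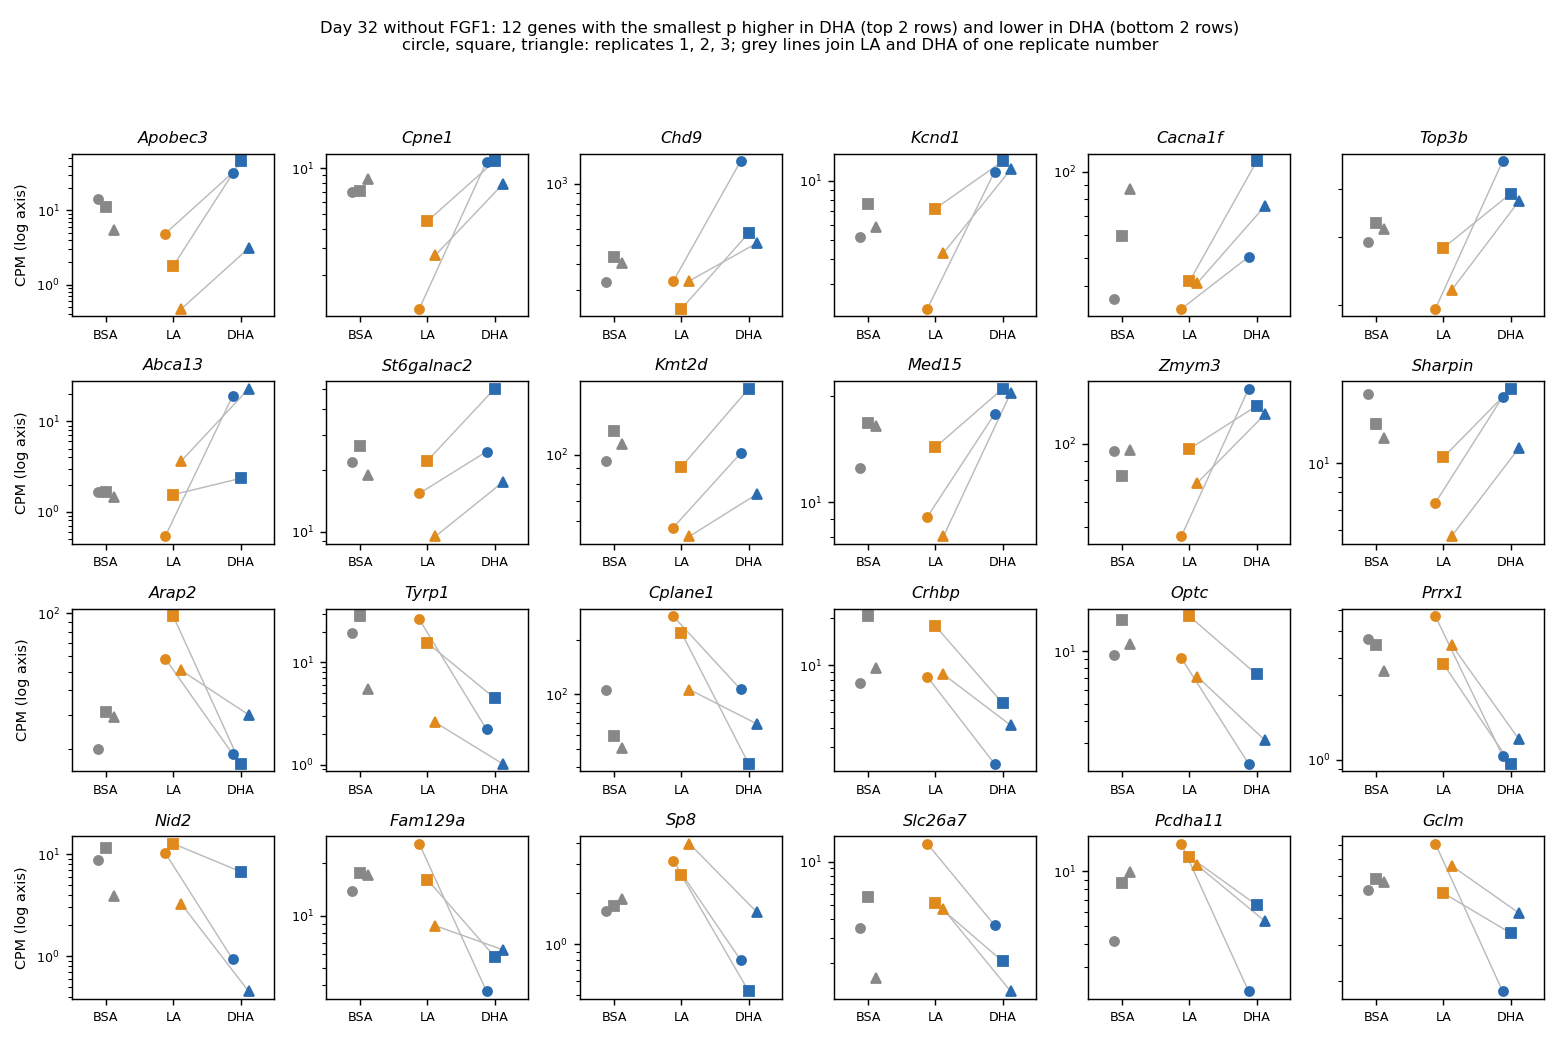
CPM (log axes) of the gene table for the 24 genes in each library of BSA (grey), LA (orange) and DHA (blue), with 1 symbol per replicate and a grey line from LA to DHA of the same number. Every line of a gene runs the same way because the genes were picked by their p, while the gaps between replicates of one medium are often as wide as the step from LA to DHA, as in Apobec3 (DHA 3.10 to 45.7 CPM) and Tyrp1 (LA 2.58 to 26.4 CPM).

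The third gene with a small p, Tyrp1, belongs to the pigment epithelium list. Pigment epithelium is the sheet behind the neural retina that makes melanin and clears shed outer segments, and it can remain attached after dissection. Tyrosinase (Tyr), Tyrp1 and dopachrome tautomerase (Dct) are the enzymes of melanin synthesis. They are targets of the transcription factor MITF, which binds a motif with the core CATGTG called the M-box. This core was searched on both strands in RefSeq promoters of GRCm38.p6 from 250 bases before to 50 after each start. It was found in 4650 of 32851 promoters (14.2%) and in 7 of the 15 promoters of the list's genes (46.7%). Genes with the core went both ways: Tyrp1, Tyr and Dct were below 0 in log2 difference, and Oca2 (0.43), Rgr (0.88) and Rlbp1 (0.35) above 0. Rpe65, which also had the core, was not tested. The 3 promoters are shown because these genes had the smallest p values of the list, each 5′ to 3′ along its gene with the core, or its reverse complement, in capitals. They lie at chr4:80833963-80834262 (+ strand) for Tyrp1, chr7:87493463-87493762 (− strand) for Tyr and chr14:118052197-118052496 (− strand) for Dct. A match is a description of letters, not a measured binding site.
Tyrp1: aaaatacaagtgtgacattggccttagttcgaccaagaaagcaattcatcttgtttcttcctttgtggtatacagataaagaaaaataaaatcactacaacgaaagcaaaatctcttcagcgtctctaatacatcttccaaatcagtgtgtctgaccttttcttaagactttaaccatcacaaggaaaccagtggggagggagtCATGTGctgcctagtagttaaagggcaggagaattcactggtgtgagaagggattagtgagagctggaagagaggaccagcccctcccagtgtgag
Tyr: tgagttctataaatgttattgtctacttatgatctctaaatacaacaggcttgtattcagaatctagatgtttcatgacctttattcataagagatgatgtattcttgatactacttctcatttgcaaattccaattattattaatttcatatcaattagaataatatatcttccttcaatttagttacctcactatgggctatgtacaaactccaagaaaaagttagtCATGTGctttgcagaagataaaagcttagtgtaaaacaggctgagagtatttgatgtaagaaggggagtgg
Dct: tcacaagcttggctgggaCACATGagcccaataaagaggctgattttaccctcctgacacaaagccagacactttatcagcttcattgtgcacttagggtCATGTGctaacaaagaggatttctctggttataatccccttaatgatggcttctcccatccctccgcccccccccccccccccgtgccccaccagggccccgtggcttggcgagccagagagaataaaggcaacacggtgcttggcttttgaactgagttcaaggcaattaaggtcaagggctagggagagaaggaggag

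Tyrp1 (chromosome 4, 80834123 to 80851719) was at 26.4, 15.6 and 2.58 CPM in LA, 2.21, 4.47 and 1.02 CPM in DHA and 19.3, 28.3 and 5.47 CPM in BSA. DHA was lower than LA within every pair, and replicate 3 was low in all 3 media. The log2 difference was −2.31 (SE 0.46, unadjusted p = 0.000702, adjusted p = 1.00) and −1.59 without replicate 1, and its adjusted p over the alternatives ran from 0.00315 to 1.00, passing in 2 of 19. Summed transcripts gave −2.11 (SE 0.44). Tyr was at 22.6, 2.36 and 2.27 CPM in LA and 0.835, 1.86 and 0.710 CPM in DHA. The gap came mostly from the first LA library: the log2 difference of Tyr was −2.56 (SE 0.88) and −1.0 without replicate 1. Dct was at 31.6, 17.9 and 8.36 CPM in LA and 12.7, 12.1 and 6.89 CPM in DHA, a log2 difference of −0.76, or −0.41 without the first LA library.

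Over the pigment epithelium list, 12 of 16 genes were tested, 0 passed, 9 were below 0 and 4 had an unadjusted p under 0.05, all lower in DHA (0.941% of all genes): the 3 above and Pmel, the fibril protein of melanosomes, named after its value was seen (log2 difference −1.72, or −0.72 without replicate 1). All 4 are genes of melanin and its granules. Oca2, also a melanosome gene and named after its value was seen, was above 0 (0.43), and Mlana and Slc45a2 were not tested. Only 3 of the 12 genes were above 0, which were Oca2, Rgr (0.88) and Rlbp1. Rlbp1, the retinaldehyde-binding protein that glia also make and likewise named after its value was seen, was at 83.3 to 194 CPM in LA and 105 to 317 CPM in DHA. In the sums Rlbp1 was at 205, 180 and 84.8 CPM in LA and 109, 326 and 138 CPM in DHA, so pair 1 ran the other way. Its log2 difference ran from −0.15 to 0.86 when libraries were left out. Rpe65, the visual cycle isomerase that defines mature pigment epithelium, was at 0 in all 6 libraries. The median log2 difference of the list was −0.25, made of −1.50 in pair 1, 0.02 in pair 2 and −0.02 in pair 3, and it was 0.03 without replicate 1. The summed level of the list was 238 to 495 CPM in LA, 247 to 535 in DHA and 314 to 555 in BSA, so the groups overlapped.

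Mesenchyme and fibroblast genes, which mark connective tissue and not neural retina, had the lowest median of the 41 gene lists. All 18 genes were tested, 0 passed, 14 were below 0, and 6 had an unadjusted p under 0.05, all lower in DHA, against 0.941% of all genes. The median was −0.82 over the list, −0.48, −0.77 and −0.52 in pairs 1 to 3 on log2 CPM, and between −0.97 and −0.50 over all 19 alternatives. Lox, which crosslinks collagen, was at 12.8, 22.5 and 8.62 CPM in LA and 7.57, 6.06 and 5.50 CPM in DHA, with 13.9, 13.4 and 8.93 CPM in BSA. Its groups did not overlap, and the log2 difference was −1.12 (SE 0.34), or −0.70 without replicate 2. Lumican (Lum), a collagen-binding proteoglycan, also did not overlap, with 3.82, 6.16 and 3.04 CPM in LA and 2.67, 2.41 and 0.190 CPM in DHA and a log2 difference of −1.64, or −0.97 without replicate 3. Decorin (Dcn), of the same family, was at 8.20, 15.7 and 2.58 CPM in LA and 6.39, 4.57 and 1.23 CPM in DHA, with a log2 difference of −1.11, or −0.66 without replicate 2. The summed level of the 18 genes was 179, 369 and 123 CPM in LA, 200, 187 and 83.2 CPM in DHA and 213 to 274 CPM in BSA. In these sums pair 1 did not share the direction of the other pairs. In pools of tissue, fewer cells of a type and less RNA per cell cannot be told apart.

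Other neighbours of the neural retina were also below 0 in the middle but spread over the pairs. The ciliary margin list, of the rim between retina and pigment epithelium, had a median of −0.13 with 11 of 12 genes tested. It was −1.23 in pair 1 and 0.07 and 0.08 in pairs 2 and 3, and 0.08 without replicate 1. Its member Gja1, a gap junction protein, was at 82.7, 26.0 and 14.7 CPM in LA and 16.1, 9.53 and 15.9 CPM in DHA, a log2 difference of −1.22, or −0.60 without replicate 1. BMP signalling had a median of −0.24, with 12 of 15 genes below 0 and 3 whose groups did not overlap (Grem1, Bambi and Bmp2), against 2.1% of all genes. Grem1, a secreted BMP antagonist, was at 13.4, 5.96 and 3.50 CPM in LA and 2.47, 0.859 and 2.28 CPM in DHA, a log2 difference of −1.82 (SE 0.68). The median of that list was −0.84, −0.12 and −0.03 in the 3 pairs and −0.05 without replicate 1. The lists of more distant cell types had many genes below the count filter. They were endothelium (5 of 10 genes tested, median 0.12), microglia and macrophages (3 of 12, 0.13), astrocytes and brain (6 of 12, −0.37), undifferentiated stem cells (4 of 10, 0.64) and lens (1 of 16, 0.57).

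Photoreceptor genes were mostly above 0, and the size of their medians moved with 1 library. All 18 tested genes of photoreceptor fate and shared phototransduction were above 0, with a median of 0.28 and 0 with an unadjusted p under 0.05. That median was 0.13, 0.51 and 0.05 in pairs 1 to 3, and 0.10 when the second DHA library was left out. The rod list had a median of 0.12 with 11 of 15 genes above 0, made of −0.19, 0.73 and −0.03 in the pairs, and it was −0.19 without the second DHA library. Gnat1, the rod transducin subunit, had the second DHA library at 202 CPM against 17.2 to 66.2 CPM in the other LA and DHA libraries. Nrl had a log2 difference of −0.07 (SE 0.20) and Crx of 0.09 (SE 0.18). Recoverin (Rcvrn), a calcium sensor of phototransduction, was at 126, 154 and 129 CPM in LA and 150, 304 and 122 CPM in DHA. The part of that library's mitochondrial share and GC relation in the rod values was not tested.

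The lists of the outer segment and of the synapse moved with replicate 2 in the same way. The outer segment and cilium list had a median of 0.28 with 11 of 13 genes above 0, and 2 genes with an unadjusted p under 0.05, both higher in DHA (1.1% of all genes). That median was 0.05 without replicate 2. Abca4, the retinoid flippase of outer segment discs, was at 254, 364 and 257 CPM in LA and 359, 521 and 318 CPM in DHA, with 345 to 447 CPM in BSA. It was higher in DHA within each pair, and its log2 difference was 0.44 (SE 0.17), 0.42 without replicate 1 and 0.38 both without the second DHA library and in the sum, where its unadjusted p was 0.106. Rpgrip1, which holds the RPGR protein at the connecting cilium, was at 839, 1184 and 845 CPM in LA and 1472, 1584 and 964 CPM in DHA, a log2 difference of 0.48 (SE 0.21), or 0.29 without the first DHA library. The ribbon synapse list, which holds Cacna1f, had a median of 0.21 with 11 of 12 genes above 0 and 1 with an unadjusted p under 0.05, and it was 0.04 without the second DHA library. Cones had a median of −0.04: the short-wave opsin Opn1sw was at 10.7, 1.71 and 6.81 CPM in LA and 13.2, 1.62 and 4.16 CPM in DHA, and cone arrestin Arr3 at 7.58, 3.87 and 4.96 CPM and 9.39, 2.20 and 5.20 CPM. Both followed the replicate number more than the medium.

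**Figure D3:**
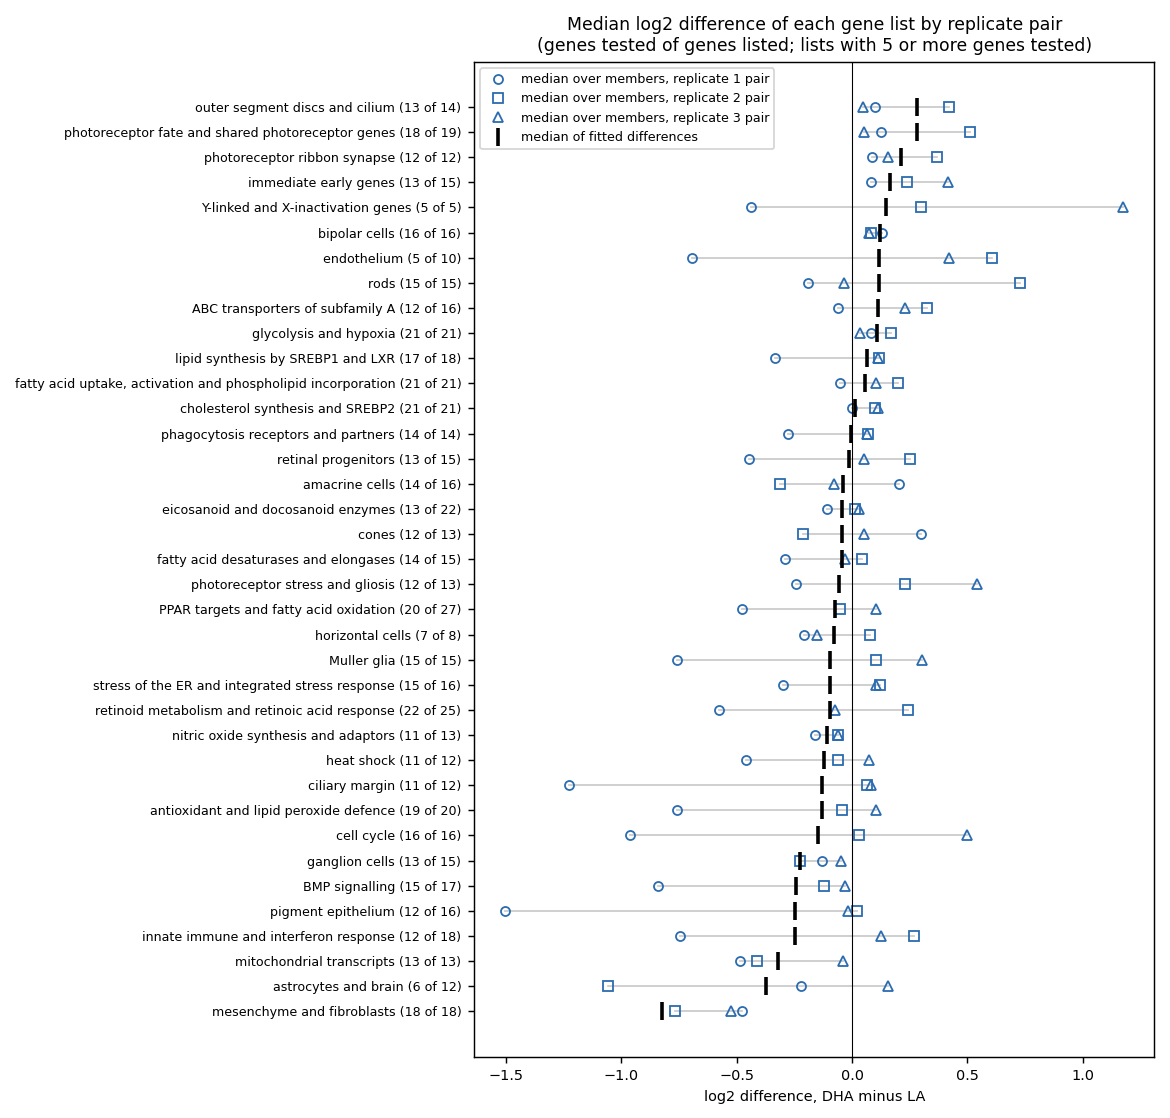
Median log2 difference, DHA minus LA, of each gene list with 5 or more genes tested (x axis), with open symbols for the 3 replicate pairs and a black bar for the median of the fitted differences; pair values use a prior count and so lie nearer to 0 for low genes. Mesenchyme and fibroblast genes are below 0 in all 3 pairs (−0.48, −0.77 and −0.52), rod genes are high in pair 2 alone (0.73), and most lists cross 0 between pairs.

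The other retinal cell types had medians between −0.23 and 0.12, and some of them differed between pairs. Median log2 differences were 0.12 for bipolar cells, −0.04 for amacrine cells, −0.08 for horizontal cells, −0.23 for ganglion cells, −0.09 for Müller glia, −0.01 for retinal progenitors and −0.15 for cell cycle genes. Cell cycle genes had −0.96, 0.03 and 0.50 in pairs 1 to 3 and ran from −0.45 to 0.34 when libraries were left out. Müller glia had −0.76, 0.10 and 0.30, and ran from −0.28 to 0.16. Nefm, a neurofilament of ganglion cell axons, was the only ganglion cell gene with an unadjusted p under 0.05 and was at 23.6, 52.0 and 31.1 CPM in LA and 15.7, 34.3 and 24.8 CPM in DHA. Aqp4, the water channel of Müller glia, was at 87.3, 42.0 and 30.1 CPM in LA and 19.1, 6.73 and 37.2 CPM in DHA, so the third pair ran the other way, and its log2 difference was −1.44 (SE 0.52), or −0.88 without replicate 2 and −2.41 without replicate 3. Gfap, which glia raise under stress, had 33.6, 57.2 and 16.7 CPM in LA and 12.8, 9.47 and 24.7 CPM in DHA, again with the third pair reversed and a log2 difference of −1.15, or −0.31 without replicate 2. Of the cell cycle list only Ccnb2, a mitotic cyclin, had an unadjusted p under 0.05, with a log2 difference of 1.16. In the list of photoreceptor stress and gliosis (median −0.06) the protease inhibitor Serpina3n had a log2 difference of −1.69 (SE 0.73), or −0.76 without the second LA library. In that of innate immunity (median −0.25, or 0.22 without replicate 1) the DNA sensor Aim2 had −1.91 (SE 0.71), or −0.90 without replicate 3. Aim2 was at 3.80, 2.27 and 12.6 CPM in LA and at 1.70, 1.53 and 0.761 CPM in DHA.

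Genes that handle the supplied fatty acids mostly overlapped between the media. Of 14 desaturase and elongase genes tested, 0 passed and 0 had an unadjusted p under 0.05, with a median of −0.04. The groups did not overlap in 1 of them, lower in DHA, against 2.1% of all genes. This was the desaturase Scd4, named after its value was seen. It was at 1.57, 1.39 and 1.28 CPM in LA and 0.861, 0.234 and 0.737 CPM in DHA, a log2 difference of −1.30 (SE 0.64). Fads2, the first desaturase on the way from LA to arachidonic acid and from alpha-linolenic acid to DHA, was at 24.8, 78.3 and 17.9 CPM in LA, 22.9, 110 and 15.8 CPM in DHA and 36.3 to 83.4 CPM in BSA. Its level followed the pair, high in replicate 2 of both fatty acids, and the log2 difference of 0.15 had a 95% interval from −1.09 to 1.39. Elovl2, the elongase of DHA synthesis, was at 235, 219 and 221 CPM in LA and 189, 202 and 247 CPM in DHA, and its interval from −0.47 to 0.30 leaves out a change of 2-fold (1 log2 unit) in either direction. The intervals of Elovl4 (−0.53 to 0.44), of the stearoyl-CoA desaturase Scd1 (−0.37 to 0.42) and of Acsl6 (−0.41 to 0.56) leave it out too. For Mfsd2a, the carrier of DHA-containing lysolipids, the counts were low, at 0.585, 0.370 and 0.302 CPM in LA and 0.346, 2.30 and 0.417 CPM in DHA, and the interval from −1.16 to 3.60 does not. The wider list of fatty acid uptake, activation and phospholipid incorporation had a median of 0.06 with 13 of 21 genes above 0 and 0 with an unadjusted p under 0.05.

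Genes under fatty acid control were read in lists by their regulator. PPAR targets and fatty acid oxidation had a median of −0.08 (−0.48, −0.05 and 0.10 in the pairs), with 20 of 27 genes tested and 0 with an unadjusted p under 0.05. In 2 of them the groups did not overlap, both lower in DHA, against 2.1% of all genes. Cpt1a, the gate of mitochondrial fatty acid entry, was at 89.9, 107 and 101 CPM in LA and 64.7, 134 and 102 CPM in DHA, and Plin2, the coat protein of lipid droplets, at 11.3, 13.6 and 6.73 CPM in LA and 7.80, 11.6 and 6.21 CPM in DHA. Angptl4, a secreted PPAR target that inhibits lipoprotein lipase, did not pass the count filter: it was at 0.277, 0.0818 and 0.196 CPM in LA, 0, 0.156 and 0 CPM in DHA and 0.533, 1.43 and 0.266 CPM in BSA, all low. Rxrg, the RXR receptor of cones, had a log2 difference of −0.17 (SE 0.40). Medians were 0.06 for lipid synthesis genes of SREBP1 and LXR (−0.33, 0.12 and 0.11 in the pairs) and 0.01 for cholesterol synthesis genes of SREBP2. Hmgcs1, an early enzyme of cholesterol synthesis, was at 389, 352 and 374 CPM in LA and 430, 267 and 456 CPM in DHA. Insig1, which retains SREBP in the endoplasmic reticulum, had a log2 difference of 0.26 (SE 0.19). Lss, which closes the sterol ring, was the one gene of that list with an unadjusted p under 0.05, at 86.0, 107 and 87.6 CPM in LA and 119, 124 and 123 CPM in DHA, without overlap and with a log2 difference of 0.39 (SE 0.16), while its sums overlapped (0.23, SE 0.15). The lipid-carrying ABCA transporters had a median of 0.11 and 3 of 12 genes with an unadjusted p under 0.05, all higher in DHA (1.1% of all genes): Abca13, Abca4 and Abca6. In the sums of transcripts none of these 3 kept that p, with Abca13 at 0.662, Abca4 at 0.106 and Abca6 at 0.0877. Abca6 was at 0.0840, 0.890 and 0.446 CPM in LA and 0.609, 1.89 and 3.20 CPM in DHA.

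Among the products of fatty acids and their receptors, 2 genes did not overlap, 1 higher and 1 lower in DHA, against 2.59% and 2.1% of all genes. The enzymes and receptors of eicosanoids and docosanoids had a median of −0.04, with 13 of 22 genes tested and 0 with an unadjusted p under 0.05. Ffar1, a receptor of free fatty acids, was at 2.23, 1.66 and 2.94 CPM in LA and 5.8, 3.43 and 4.38 CPM in DHA, a log2 difference of 1.0 (SE 0.47, unadjusted p = 0.0641, adjusted p = 1.00 in edgeR's test). Ptgs2, the inducible cyclooxygenase that makes prostaglandins, was at 5.51, 2.49 and 2.38 CPM in LA and 1.72, 0.977 and 2.24 CPM in DHA, a log2 difference of −0.99 (SE 0.56), or −0.55 without the first DHA library. Both were named after their values were seen. Retinoid metabolism had a median of −0.10, with Aldh1a3, which makes retinoic acid, at 1.21, 2.30 and 1.18 CPM in LA and 0.419, 0.630 and 0.240 CPM in DHA. Those groups did not overlap, and the log2 difference was −1.79 (SE 0.62). Among phagocytosis genes (median −0.0035), Mertk, the receptor with which pigment epithelium engulfs outer segments, was at 5.31, 5.90 and 4.48 CPM in LA, 1.97, 1.71 and 2.37 CPM in DHA and 2.35 to 3.82 CPM in BSA. All LA libraries were more than 1.5 times the highest DHA library, and the log2 difference was −1.34 (SE 0.42, unadjusted p = 0.0112, adjusted p = 1.00), or −1.30 without replicate 1. Among genes of nitric oxide synthesis (median −0.11), the adaptor Nos1ap was at 1.42, 1.95 and 1.71 CPM in LA and 4.74, 3.01 and 5.19 CPM in DHA, without overlap. Its log2 difference was 1.28 (SE 0.47), or 0.47 (SE 0.46) with overlap in the sum of its transcripts.

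Antioxidant and lipid peroxide defence, a concern for easily oxidised fatty acids, had a median of −0.13, with 12 of 19 genes below 0 and 1 with an unadjusted p under 0.05, Gclm. The transcription factor NRF2 acts on such genes through the antioxidant response element, whose core TGACNNNGC, searched in the same way, was in 4071 of the 32851 promoters (12.4%) and in 6 of the 19 promoters of the list (31.6%). The promoter of Gclm is shown because that gene is the list's member among the 24 (chr3:122245307-122245606, + strand), with the match, which is on the opposite strand, in capitals.
Gclm: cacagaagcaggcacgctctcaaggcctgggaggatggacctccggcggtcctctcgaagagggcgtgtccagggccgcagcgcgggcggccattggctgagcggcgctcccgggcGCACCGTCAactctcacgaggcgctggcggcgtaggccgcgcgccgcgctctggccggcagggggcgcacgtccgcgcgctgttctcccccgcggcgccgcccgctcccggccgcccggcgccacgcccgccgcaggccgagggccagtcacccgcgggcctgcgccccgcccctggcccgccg

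The pairs of the antioxidant list differed, with medians of −0.76, −0.04 and 0.10, and the median was 0.11 without replicate 1. Stress of the endoplasmic reticulum (−0.09), heat shock (−0.12), immediate early genes (0.16) and glycolysis and hypoxia (0.11) had 0 genes with an unadjusted p under 0.05. The remaining lists, of the imprinted Dlk1-Meg3 locus (median 0.82 over 4 tested genes) and of Y-linked and X-inactivation genes (0.15 over 5), served to describe the libraries.

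Mitochondrial transcripts took a smaller share of the counts in DHA than in LA within each pair. The share was 12.5, 7.11 and 11.4% in LA, 9.38, 5.55 and 10.6% in DHA and 8.25, 8.55 and 7.20% in BSA. Differences were −3.16, −1.55 and −0.778 percentage points, with an exact paired permutation p of 0.25 (two-sided), the smallest that 3 pairs allow. LA averaged 10.3% ± 2.86 (SD, n = 3), DHA 8.50% ± 2.63 and BSA 8.00% ± 0.710, so the fatty acid media overlapped. All 13 mitochondrial genes were below 0, with a median log2 difference of −0.32 and 0 with an unadjusted p under 0.05. That median was −0.49, −0.41 and −0.04 in the pairs and −0.08 without the second DHA library. mt-Nd1, a subunit of complex I, was at 6793, 2746 and 6214 CPM in LA and 3521, 2063 and 5725 CPM in DHA. A fit without these transcripts called 0 genes.

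**Figure D4:**
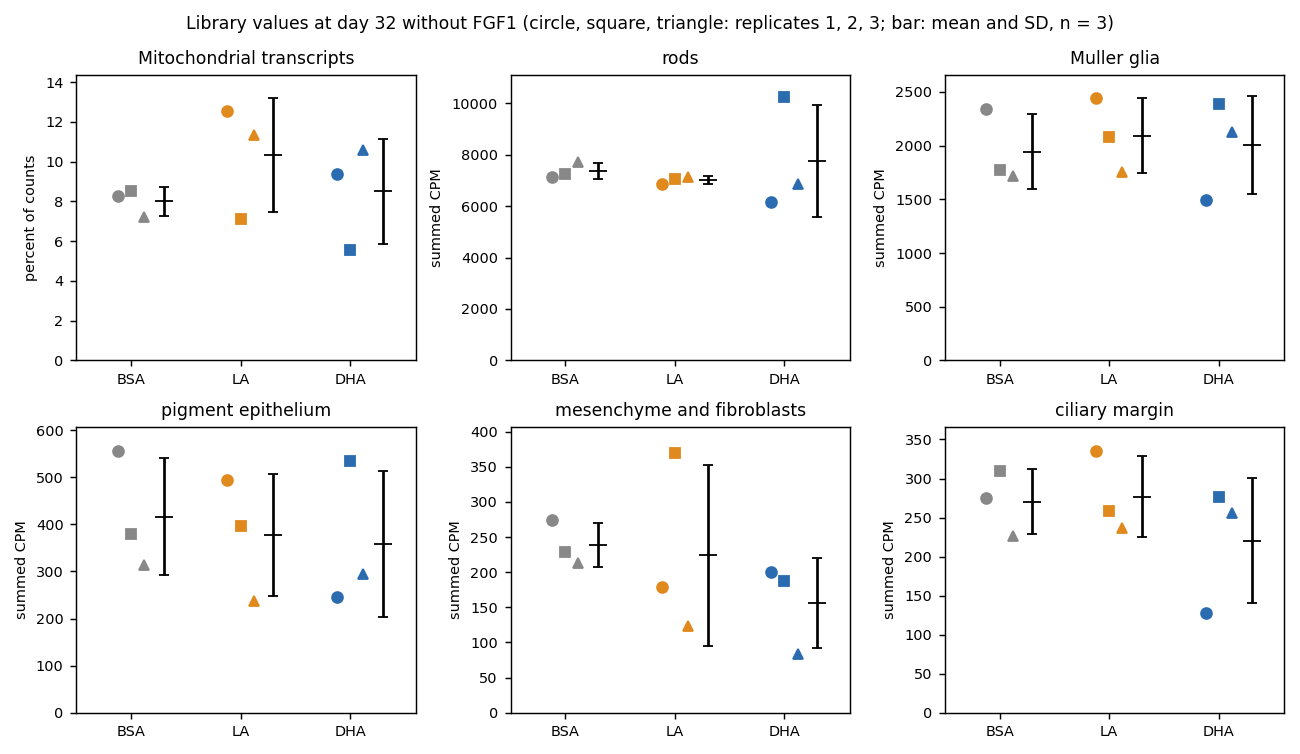
Share of counts from mitochondrial transcripts (percent) and summed CPM of 5 gene lists in each of the 9 libraries, with 1 symbol per replicate and the mean with SD (n = 3) beside each medium. LA and DHA overlap in every panel. In mesenchyme and fibroblast genes all BSA libraries (213 to 274 CPM) lie above all DHA libraries (83.2 to 200 CPM). The second DHA library is high in rod genes, and mitochondrial shares are lower in DHA than in LA of the same number in all 3 pairs.

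At the level of single transcripts, 0 of 41060 (0%) passed an adjusted p of 0.05 and 763 (1.86%) had an unadjusted p under 0.05, whereas DESeq2 with the same pairing called 215. Some isoforms were at 0 throughout one medium, and those named here were chosen after their values were seen. This was so for 41 transcripts at 0 in all LA and above 0 in all DHA libraries and for 20 the other way round. Estimated counts of isoforms rest on dividing shared reads, so a 0 can come from that division. Cpne1-209, a form with a retained intron, was at 0 in LA, 9.86, 4.31 and 9.61 CPM in DHA and 2.13, 9.78 and 9.97 CPM in BSA, at least 27.7-fold higher in DHA when LA is set to 3 counts per library. Aldh6a1-204 was at 0 in LA and 8.85, 6.64 and 3.48 CPM in DHA, at least 22.1-fold higher, while its gene, an enzyme of valine breakdown, had a log2 difference of 0.21. In the other direction Sfpq-203 was at 23.2, 10.6 and 9.87 CPM in LA and 0 in DHA, at least 53.4-fold lower, while the gene of this splicing factor was at 498 to 688 CPM in LA and 473 to 706 CPM in DHA. Fgfr1-215, a coding form of an FGF receptor gene, had the smallest p of all transcripts, with 3.69, 9.54 and 6.56 CPM in LA, 0, 0.143 and 0 CPM in DHA and 3.18 to 8.09 CPM in BSA. The Fgfr1 gene as a whole was at 12.0, 19.2 and 13.0 CPM in LA and 12.2, 32.8 and 13.7 CPM in DHA, so this contrast was one between isoforms.

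The same media were compared at day 26 (2 libraries each) and at day 32 with 200 ng/ml FGF1 given from day 26 (2 of DHA and 3 of LA). Neither shares a library with the comparison above. They come from the deeper libraries apart from replicate 3 of LA with FGF1, so level comparisons across these stages also cross library depth. All 23 libraries were fitted with a pairing term within each stage. Neither stage called a gene between DHA and LA in edgeR's test, with 342 and 934 of 21124 genes at an unadjusted p under 0.05, of which 243 (1.15%) and 531 (2.51%) were lower in DHA. The 12 named genes higher in DHA did not keep their direction: 4 of 12 were above 0 at day 26 and 5 of 12 with FGF1. Of the 12 lower genes 8 were below 0 at day 26 and 10 with FGF1, and 6 of these 10 had an unadjusted p under 0.05 with FGF1 (Tyrp1, Crhbp, Optc, Prrx1, Nid2 and Fam129a).

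**Figure D5:**
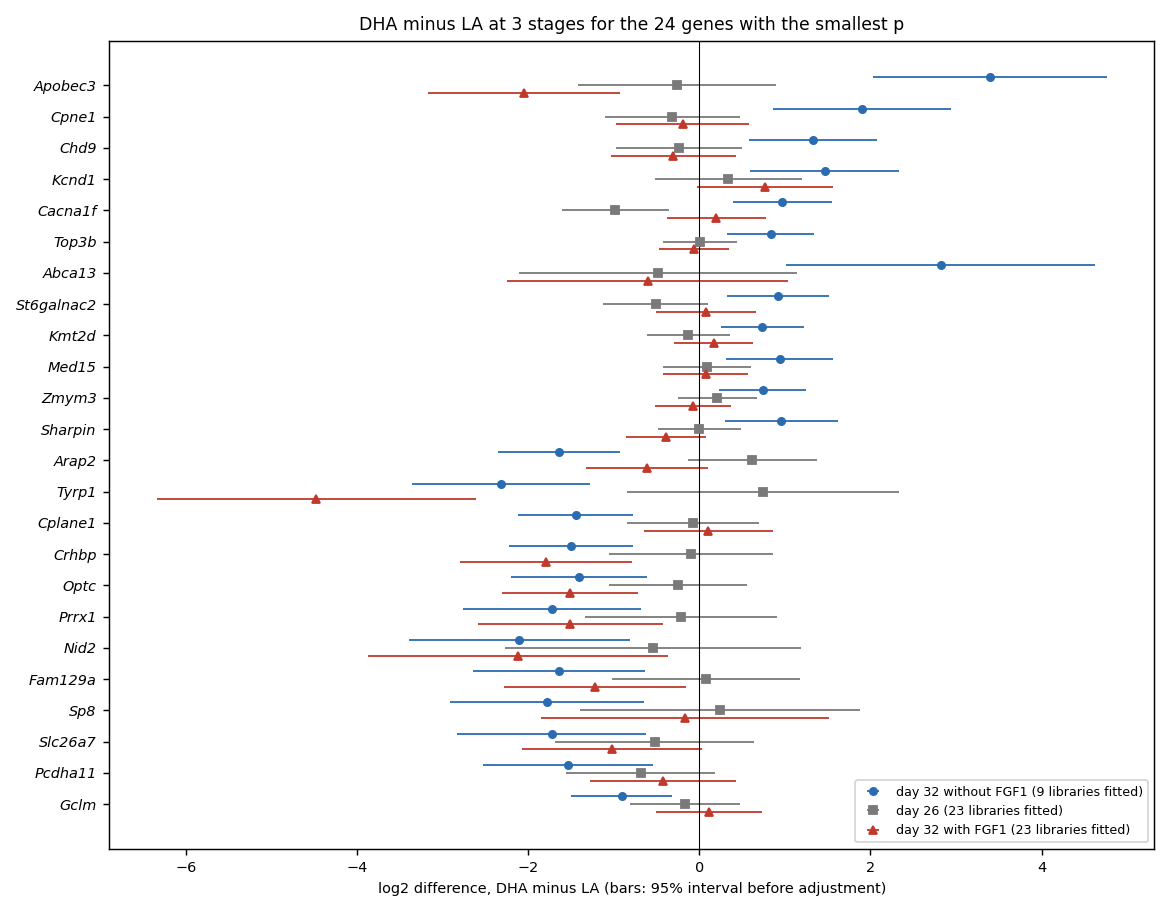
Log2 difference, DHA minus LA, with its 95% interval before adjustment (x axis) for the 24 genes at day 32 without FGF1 (blue circles), at day 26 (grey squares) and at day 32 with FGF1 (red triangles). The blue values lie on one side by selection; with FGF1, Tyrp1, Crhbp, Optc, Prrx1, Nid2 and Fam129a are also below 0, while Apobec3 is on the opposite side (−2.05).

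Genes lower in DHA without FGF1 were often lower in DHA with FGF1 as well. Of the 160 genes with an unadjusted p under 0.05 and a lower level, 128 (80.0%) were below 0 with FGF1, against 49.5% of all 7984 genes lower without FGF1. The median log2 difference of the 160 genes with FGF1 was −0.63, and they were below 0 in 73.8% of cases in FGF1 pair 1 and 76.3% in pair 2, against 43.0% and 44.1% of all genes. At an unadjusted p under 0.05 in both stages stood 52 genes, which are 32.5% of the 160 and 12.4% of the 420 genes lower with FGF1. Those 420 are 2.47% of the genes tested in both. At day 26 the same 160 genes were below 0 in 44.4% of cases, near the 51.1% of all lower genes. The 187 higher genes were above 0 with FGF1 in 65.8% of cases, close to the 61.4% of all higher genes. These shares were examined after the values were seen. The share of lower genes also below 0 with FGF1 moved with replicate 2: it was 57.9% without replicate 2, 59.0% without the second DHA library alone and 70.1% without replicate 1. It was 71.3% with a GC offset.

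Genes of the pigment epithelium and mesenchyme lists were among the 52. From the other lists came only Aqp4 (Müller glia), Gja1 (ciliary margin) and Serpina3n (photoreceptor stress and gliosis). With FGF1, Tyrp1 was at 20.0, 13.0 and 13.8 CPM in LA and 0.434 and 0.725 CPM in DHA, and Tyr at 7.37, 10.9 and 7.02 CPM in LA and 0.180 and 0.141 CPM in DHA. Both were far lower in DHA than in LA in every pair there. Dcn was at 37.1, 3.12 and 18.1 CPM in LA with FGF1 and 0.285 and 0.316 CPM in DHA, and Lox at 10.9, 2.89 and 27.8 CPM and 2.12 and 0.544 CPM. Aqp4, at 38.3, 67.3 and 38.4 CPM in LA and 5.87 and 6.09 CPM in DHA, Gja1, Lum, Dct and Serpina3n were lower too. Of the 52 genes, 12 were members of a list and 40 of none. The mesenchyme list had a median of −1.70 with FGF1, with 17 of 18 genes below 0 and 11 at an unadjusted p under 0.05, and −0.47 at day 26, with 15 below 0 and 0 at that p. The pigment epithelium list had −0.94 with FGF1 and 0.28 at day 26. The part of these neighbouring tissues in the other differences was not tested.

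The photoreceptor lists other than that of cones had medians of opposite sign at the 2 other stages. The cone list was below 0 at both, with medians of −0.49 at day 26 and −0.52 with FGF1. The fate and shared photoreceptor list was above 0 in 17 of 18 genes with FGF1 (median 0.48) and below 0 in 17 of 18 at day 26 (median −0.53). The rod list had medians of 0.56 and −0.55. No photoreceptor gene was among those whose difference passed the test between stages, given next.

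The difference between stages was tested as an interaction, DHA minus LA without FGF1 against the same at another stage. Against day 26, 2 of 21124 genes (0.00947%) passed, and against day 32 with FGF1, 3 genes (0.0142%). Without the replicate block both counts were 0. Apobec3 was the one protein-coding gene among them. With FGF1 it was at 25.5, 26.2 and 68.7 CPM in LA and 6.18 and 4.99 CPM in DHA, opposite to the direction without FGF1, and the difference of differences was 5.40 on the log2 scale (95% interval 3.82 to 6.98, adjusted p = 0.0249). In the BSA libraries of that stage Apobec3 was at 4.27 and 5.54 CPM in replicates 1 and 2 and 27.0 CPM in replicate 3. At day 26 it was at 3.72 to 6.49 CPM over the BSA, LA and DHA libraries. Wide spreads of Apobec3 within a medium thus lay among the libraries of day 32 without FGF1 and in replicate 3 with FGF1, which are outside the deeper set. The part of library depth in this was not tested. The other genes that passed, Rpl10a-ps1 and Gm10182, are predicted pseudogene models that share sequence with expressed genes, and both were called against each stage. Among the 9 libraries of day 32 without FGF1 the second DHA library alone held them above 1 CPM, at 43.8 CPM for Rpl10a-ps1 and 19.2 CPM for Gm10182, whereas the 12 deeper libraries of the other stages held them at 129 CPM or more and 39.3 CPM or more. Their interactions thus rest on that 1 library. Against day 26 the number of called genes was 0 without replicate 2 of this stage, and also without either day 26 replicate or without FGF1 replicate 1 or 2. Against day 32 with FGF1 it was 0 without FGF1 replicate 1 or 2, and 1, Rpl10a-ps1, without either day 26 replicate. Apobec3 was not called in those fits, nor among the 18 libraries kept by the authors, nor in the sums of transcripts, where only Rpl10a-ps1 was called against that stage. Cacna1f had a difference of differences against day 26 of 1.92 (95% interval 1.12 to 2.73, unadjusted p = 0.000153, adjusted p = 0.625 in edgeR's test). It was called against day 26 without a filter on low counts and in DESeq2.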

How the data were processed

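RNA-seq libraries of retinal organoids were compared from gene and transcript tables of estimated counts, which the authors deposited without scaling to a common library size; the gene values are not the sums of the transcript counts, and no step that made them is given in the sources used here. Per the submitters' processing notes, the authors used kallisto 0.45.0, Trimmomatic 0.36 and edgeR with the build GRCm38.p6; no order of steps is given. The deposited normalized signal table holds, for 18 libraries, the CPM of the gene table times 1 factor per library (0.896 to 1.25), and 5 libraries were left out by the authors, 3 of them here (replicate 1 of each medium). It served only to see which libraries were kept.

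Whole numbers were made from the estimated counts by rounding, low features were removed by filterByExpr, and counts were scaled by TMM and tested with edgeR 4.0.16 (glmQLFit and glmQLFTest, R 4.3.3) on the 9 libraries of day 32 without FGF1, with medium and replicate number as terms (4 residual degrees of freedom) and Benjamini-Hochberg adjustment over all features tested, at a threshold of 0.05. Differences from other stages were tested in all 23 libraries with the replicate number within each stage as a block. Printed CPM use the unrounded estimated counts and the TMM library sizes. Pair differences add a prior count of 2. The steps were tested on simulated data.

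The replicate number was used to pair the samples, and the labels do not say what it marks. Residuals of DHA and LA libraries of the same number correlated at 0.327, 0.676 and 0.472, over genes. Those of different numbers correlated at −0.491 to 0.131, and residuals from a mean of 3 libraries tend to push these below 0. By rank, the first DHA library was no closer to the first LA library (Spearman 0.232) than to the third (0.258). BSA libraries, which share the pairing term, were not part of these checks. Replicate 1 stood apart in Meg3 and Eif2s3y in all 3 media. In BSA, log2 CPM depended least on GC in replicate 1 (−0.20 per 10 percentage points). In LA and DHA this was replicate 2 (−0.38 and −0.04). With BSA left out, 1 gene was called and 852 had an unadjusted p under 0.05, against 0 and 347. The part of the BSA numbering in this was not tested. The members and gene lists were chosen with earlier results of these data known. Named genes were the 12 with the smallest p per direction whose mean log2 CPM reached 1, with neither a predicted nor a pseudogene symbol, 20 genes named whatever their values (1 of them is not reported here), and up to 3 genes with the smallest p in each of 41 lists, 151 genes in all, of which some are printed. Alternatives were no replicate block, other sets of libraries, RLE size factors, no count filter, DESeq2 1.42.0, limma 3.58.1 (voom), a GC offset from GENCODE M21 transcripts, leaving out libraries and, added after seeing the data, gene counts summed from 134416 of 136550 transcripts matched through GENCODE M21. Promoter sequences are RefSeq's.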

Additional observations from a re-analysis of the deposited data

Results flagged for a closer look

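The DHA minus LA difference at day 32 without FGF1 differed from that at another stage in 5 gene-by-stage tests (edgeR's quasi-likelihood test, Benjamini-Hochberg adjustment). Against day 26, the difference of differences was 10.69 on the log2 scale for Rpl10a-ps1 (adjusted p = 0.0162) and 10.22 for Gm10182 (adjusted p = 0.0162). Against day 32 with FGF1, it was 11.01 for Rpl10a-ps1 (adjusted p = 0.02), 9.481 for Gm10182 (adjusted p = 0.0249) and 5.402 for Apobec3 (adjusted p = 0.0249). Sizes for both pseudogene models depend on the prior count, because the LA libraries of day 32 without FGF1 held 0 of them, so they give a direction and no fold. Apobec3 was higher in DHA than in LA of the same number in all 3 pairs without FGF1 and lower in both pairs with FGF1.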

How the results depend on the processing

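The count of 0 called genes became 1 with only the DHA and LA libraries, 12 without a filter on low counts, 5 in DESeq2 and 2 in all 23 libraries. It was 0 without a replicate block, with RLE size factors, in limma voom, with a GC offset, without mitochondrial transcripts, in sums of transcript counts and whenever a library or a replicate number was left out. Of the listed genes, 2 were called without the filter and 1 in DESeq2, against 0. DESeq2 called 215 transcripts, and every other setting called 0. The interaction with day 26 (2 genes) gave 0 without a replicate block, 6 without the filter, 25 in DESeq2 and 0 to 2 when a replicate number was left out. The interaction with FGF1 (3 genes) gave 0 without a replicate block, 8 without the filter, 34 in DESeq2 1 in sums of transcript counts and 0 to 3 when a replicate number was left out. The block changed no other count of calls; without it unadjusted p under 0.05 went from 347 to 311 genes, 763 to 935 transcripts, and 655 to 268 (day 26) and 772 to 415 (FGF1) interactions. Single genes turned sign: Arr3 (0.037) and Cpt1a (0.013) without a replicate block, Cplane1 (0.2265), Nrl (0.05833) and Arr3 (0.0516) in sums of transcript counts, and Scd1 with a GC offset (−0.024) and in all 23 libraries (−0.0062). When libraries were left out, log2 differences ran from −0.26 to 0.042 for Nrl, −0.55 to 0.15 for Opn1sw, −0.45 to 0.21 for Arr3, −0.63 to 0.46 for Fads2, −0.079 to 0.16 for Scd1 and −0.28 to 0.18 for Cpt1a. They ran from −0.17 to 0.24 for Hmgcs1, −0.15 to 0.092 for Elovl4, −0.22 to 0.022 for Elovl2, −0.62 to 2.06 for Mfsd2a, −0.082 to 0.30 for Acsl6, −0.46 to 0.24 for Rxrg, −0.21 to 1.16 for Gnat1, −0.15 to 0.86 for Rlbp1 and −0.069 to 0.56 for Fgfr1. The share of lower genes also lower with FGF1 (80.0%), whose alternatives were chosen after seeing the data, was 70.5% with only the DHA and LA libraries, 71.3% with a GC offset and 57.9% to 82.2% when libraries were left out. The cause of these changes was not tested. With 10405663 counts in the shallowest library, low genes such as Mfsd2a had intervals wider than a 2-fold change.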
